A study of Homo sapiens with 6 samples.

Results

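Keratins are the proteins of the intermediate filaments of epithelial cells. Those described here are 9 keratin genes: KRT8, KRT18 and KRT19, the keratins of simple epithelium, KRT20 and KRT7, whose staining is used to tell colonic from other carcinomas, KRT23 and KRT80, and KRT81 and KRT86, a pair of near-identical hair keratins. The members were the rows of the deposited gene table whose symbol equalled one of these names, which gave 9 of 61806 rows. All 6 libraries were poly(A) RNA-seq of HCT116, a human colorectal carcinoma line whose genotype the labels give as wildtype. In 3 of them (si-NC) the cells carried a control short interfering RNA, and in the other 3 (si-STRIP2) one directed at STRIP2, whose protein belongs to the STRIPAK signalling complex. The dose, the time after transfection and the sequence of either RNA are not given in the sources used here, and 1 cell line was studied. No label tells whether replicate libraries were separate cultures, so the p-values measure the spread between these libraries, which may be technical.

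A keratin filament is built from heterodimers of a type I (acidic) and a type II (basic to neutral) chain, and a chain without a partner is degraded. Both chains carry a central coiled-coil rod, and the end of the rod, the helix termination motif, is the most conserved stretch of the family. In simple epithelium KRT8 is the main type II chain and KRT18 the main type I chain, joined by KRT19, a type I keratin with almost no tail, and in the differentiated cells of the intestine by the type I chain KRT20. The type II genes lie in a cluster on chromosome 12 and the type I genes in one on chromosome 17. KRT18 is the exception, a type I gene in the type II cluster next to KRT8.

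How alike the genes are bears on how well reads can be assigned to a member. The coding bases of the rod end are shown first, for 6 of the genes. These windows were found by the amino acids of the helix termination motif, so much of their likeness was set by that search. They were read from GENCODE 29 transcripts on GRCh38, 5′ to 3′ on the coding strand, and the capitals mark the 20 of 36 bases that are the same in these 6 genes. The type II chains were these:
KRT7: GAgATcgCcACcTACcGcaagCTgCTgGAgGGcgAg
KRT81: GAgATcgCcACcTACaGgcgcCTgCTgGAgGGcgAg
KRT86: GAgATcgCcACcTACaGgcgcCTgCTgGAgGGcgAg
The type I chains were these:
KRT19: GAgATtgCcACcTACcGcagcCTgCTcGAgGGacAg
KRT20: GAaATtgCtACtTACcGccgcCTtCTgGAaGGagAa
KRT23: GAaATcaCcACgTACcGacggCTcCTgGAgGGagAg
The type II windows lie at chr12:52245589-52245624 on the plus strand (KRT7, exon 7), chr12:52287110-52287145 on the minus strand (KRT81, exon 7) and chr12:52306237-52306272 on the plus strand (KRT86, exon 9). The type I windows lie on the minus strand of chromosome 17: chr17:41523785-41523820 for KRT19 (exon 6), chr17:40878153-40878188 for KRT20 (exon 6) and chr17:40925362-40925397 for KRT23 (exon 7). KRT81 and KRT86 had the same 36 bases and differed from KRT7 at 5 bases. The type I windows differed from each other at 9 or 10 bases. Over the whole coding sequence KRT81 and KRT86 were 94.15% identical, with 85 mismatches and an identical run of 605 bases. The next most alike pair, KRT7 and KRT8, was 76.7% identical, and KRT8 and KRT80 were 67.2% identical.

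Likeness was also counted over whole transcripts, in windows of the size of a short read. Of the 50-base windows of the KRT81 transcript, 44.6% occurred exactly in transcripts of other genes, 38.4% in KRT86. For KRT86 the share was 40.5%, with 33.3% in KRT81. For KRT8 it was 41.3%, spread over 37 genes with KRT8P3 (24.1%), a pseudogene, the first of them. For KRT18 it was 47.6%. Of all KRT18 windows, 21.5% were in transcripts of KRT8 that run across KRT18 on the other strand. The shares were small for KRT7 (10.8%), KRT23 (4.95%), KRT19 (1.79%) and KRT80 (0.42%). Nearly all of that of KRT7 lay in the antisense gene KRT7-AS, which held 10.4% of all KRT7 windows. For KRT20 it was 0. The transcripts taken for KRT7, KRT19, KRT20, KRT23 and KRT80 are therefore mostly sequence that no other annotated transcript holds. KRT81 and KRT86 are uncertain as separate genes. KRT8 and KRT18 had shares of similar size to those of KRT81 and KRT86, so part of their sequence is also found in other transcripts. How reads from shared sequence were counted was not examined.

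The total count per library ranged from 17184963 to 21721218. STRIP2 itself kept 72.6% of its control level in the si-STRIP2 libraries (log2 fold change -0.46, edgeR adjusted p = 1.62e-05). Among markers of colorectal epithelium, EPCAM (205.7 FPKM in si-NC) and CDH1 (36.6) were high, CDX2 was at 2.51, and VIL1, CDH17 and CDX1 were at or near 0 (0.023, 0.083 and 0 FPKM). CDH1, the gene of E-cadherin, was lower in si-STRIP2, at 24.2 FPKM without overlap (log2 fold change -0.60, edgeR adjusted p = 1.57e-14), and the part of this in the keratin values was not tested. Together with KRT8, KRT18 and KRT19, EPCAM and CDH1 carry the epithelial label, while VIL1, CDH17 and CDX1, markers of intestinal differentiation, were near absent. Markers of squamous epithelium other than KRT10 and KRT13 were near 0, with KRT1, KRT4 and IVL at 0 counts. The summed levels of 4 endothelial and 5 immune markers were at most 0.46 FPKM in any library. Of 6 fibroblast markers, COL1A2 was at 0 and COL1A1 at 2.28 FPKM.

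The 9 keratins fell into 3 tiers of abundance that lay well apart. FPKM, the unit of these levels, is the count of a gene divided by its exonic size and by the total of the library. KRT18, KRT19 and KRT8 lay between 122.2 and 197.94 FPKM in every library. KRT80, KRT7 and KRT23 lay between 2.94 and 13.18 FPKM, and KRT20, KRT81 and KRT86 between 0.07 and 0.72 FPKM. The order in si-NC was KRT18, KRT19, KRT8, KRT80, KRT7, KRT23, KRT20, KRT81 and KRT86. No libraries of neighbours in the top tier overlapped. Below it, KRT80 (12.41 to 13.18 FPKM) was above KRT7 (11.51 to 11.83) in every control library, KRT7 above KRT23 (9.38 to 10.90), and KRT81 overlapped both KRT20 and KRT86, which did not overlap each other. In si-STRIP2 cells KRT80 was the lowest of the middle tier, below KRT7 and KRT23 in every library. The order within the middle tier depends on the length used: per length of 1 transcript, KRT7 was at 26.5 FPKM in si-NC, KRT23 at 14.86 and KRT80 at 14.45, the last pair overlapping, so KRT80 was then the lowest by its mean in both groups.

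**Figure D1:**
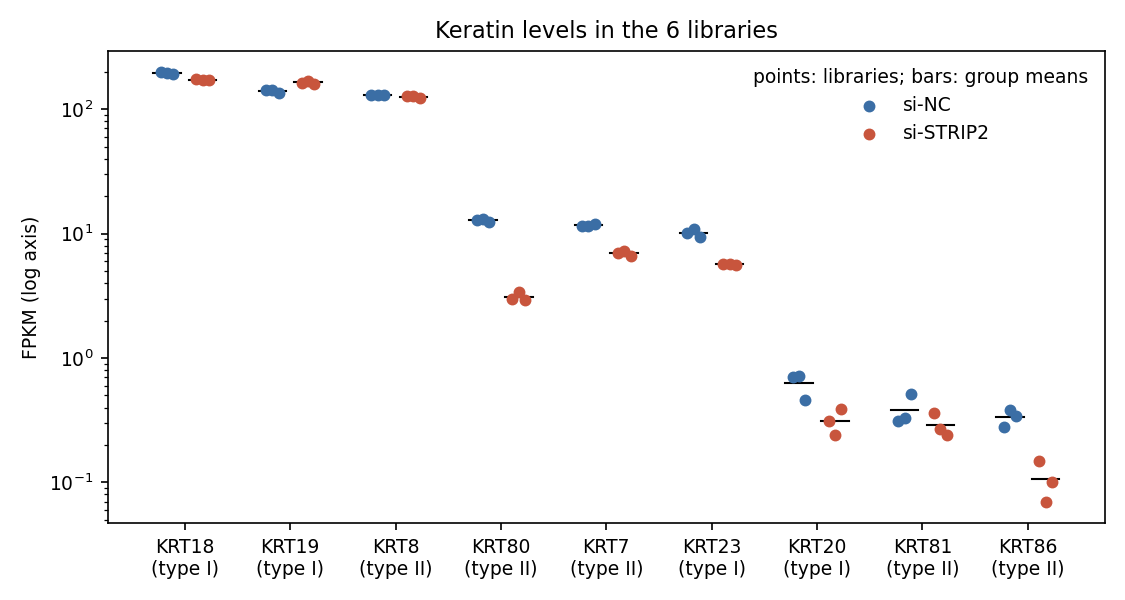
FPKM (log axis) of the 9 keratins in each library, with points for libraries, bars for the means of 3, and si-NC to the left of si-STRIP2 for each gene. KRT18, KRT19 and KRT8 sit above 122 in all libraries, KRT80 drops from a mean of 12.8 to 3.11, and KRT20, KRT81 and KRT86 stay under 1.

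Between the groups, 7 of the keratins differed (edgeR, adjusted p under 0.05). Of these, 1 (KRT19) was higher in si-STRIP2 and 6 (KRT80, KRT86, KRT20, KRT23, KRT7 and KRT18) were lower. Most genes differed in this comparison: 54.8% of the 15687 genes tested were called, 27.8% higher and 27.0% lower. A share of 7 in 9 thus has to be read against 54.8%, and 6 of 9 lower against 27.0%. At least 2-fold lower were 3 keratins (KRT80, KRT86 and KRT20), as were 2.91% of the genes tested. For 8 of the 9 the libraries of the groups were fully separated in FPKM, against 58.6% of all genes tested. The median log2 fold change was -0.75 for the 9 keratins and 0.014 for all genes tested. All 9 passed the filter on low counts, but KRT86 did so through the control group alone, with 3 of 3 si-NC and 0 of 3 si-STRIP2 libraries at the limit of 0.575 CPM (counts scaled to the library total). KRT81 had 3 and 1 libraries at that limit and KRT20 3 and 2, so both also leaned on the control group to pass. With KRT86 left out, 6 of 8 were called, 5 of them lower and 2 at least 2-fold lower. KRT20 is among both the 5 and the 2, so these counts keep part of the effect of the filter. With no filter on low counts KRT86 was still called (edgeR adjusted p = 0.00268). Since this is RNA of whole cultures, fewer cells with a keratin and less of its RNA per cell cannot be told apart.

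**Figure D2:**
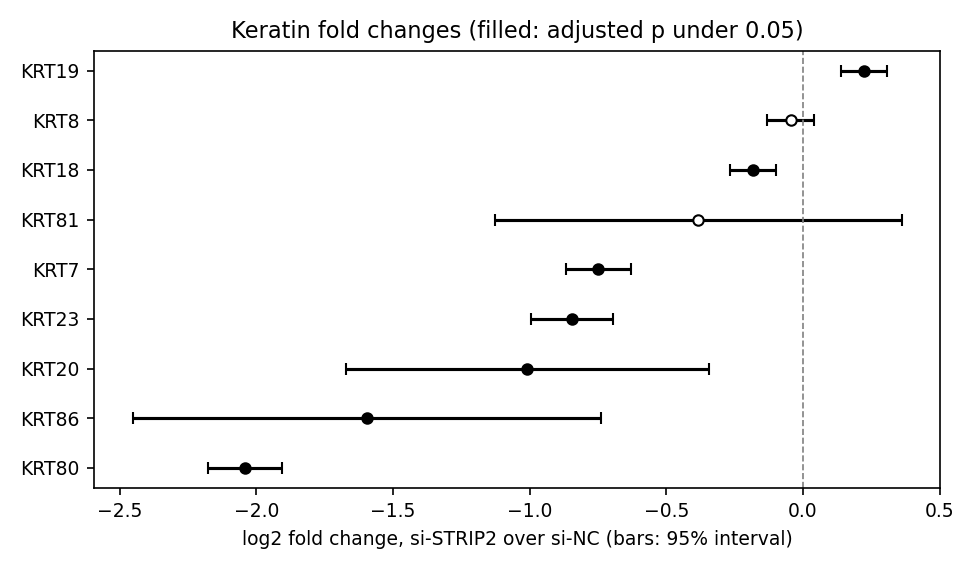
Log2 fold change (si-STRIP2 over si-NC) of each keratin with its 95% interval from the edgeR fit, filled where the adjusted p was under 0.05. KRT80 stands at -2.04, KRT19 is the one gene called above 0 at 0.22, and the intervals of the low genes KRT20, KRT81 and KRT86 are the widest.

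KRT8 (ENSG00000170421, chromosome 12, 52897187 to 52949954, minus strand), the main type II chain of simple epithelium, had the smallest log2 fold change of the 9. It was at 129.25, 129.89 and 129.89 FPKM in the si-NC libraries and at 127.60, 128.00 and 122.20 in the si-STRIP2 libraries, with 14482 to 19318 counts. Each si-STRIP2 value lay below each si-NC value, 2 of them by a narrow margin. Its log2 fold change was -0.045 (95% interval -0.13 to 0.040, edgeR adjusted p = 0.374), which did not pass. On the linear scale that interval runs from 0.913 to 1.03 of the control level.

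KRT18 (ENSG00000111057, chromosome 12, 52948871 to 52952906, plus strand), the type I partner of KRT8, was lower by a small amount. It was at 197.94, 194.20 and 192.51 FPKM in si-NC and at 173.62, 172.44 and 170.31 in si-STRIP2, so all 3 si-STRIP2 libraries lay below all controls. The means were 194.9 ± 2.78 and 172.1 ± 1.68 FPKM (SD, n = 3), 88.3% of control and -0.18 on the log2 scale (standard error 0.041, edgeR adjusted p = 0.000278). Tested against a change of 1.2-fold in place of no change, KRT18 was not called (edgeR adjusted p = 1.0), and 23.7% of all genes tested were.

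KRT19 (ENSG00000171345, chromosome 17, 41523617 to 41528308, minus strand), which pairs with KRT8 as KRT18 does, moved the other way. The si-NC libraries were at 143.28, 141.23 and 135.44 FPKM, and the si-STRIP2 libraries at 162.40, 169.03 and 160.00. Every si-STRIP2 library was above every control library. It was 1.17-fold higher (log2 fold change 0.22, 95% interval 0.14 to 0.31, edgeR adjusted p = 1.85e-05), and this call too was lost against a change of 1.2-fold (edgeR adjusted p = 0.950). The 95% intervals of KRT18 (-0.27 to -0.10) and KRT19 lay on opposite sides of 0. In FPKM, the ratio of KRT18 to KRT19 went from 1.39 ± 0.0251 to 1.05 ± 0.0270, with no overlap between the libraries of the groups.

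A pair of features of the KRT8 and KRT18 loci bear on these values. The annotated exons of KRT8 and KRT18 share 525 bases on opposite strands, and whether counting used strand is not given in the sources used here. Their pseudogenes were numerous and nearly silent in the table: 51 of KRT8 held 0.615% as many counts as KRT8, 67 of KRT18 held 0.20%, and 5 of KRT19 held 0. With each parent summed with its pseudogenes, 7 of the 9 keratins were called, the same 7 genes, beside 8597 of 15684 genes tested.

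KRT80 (ENSG00000167767, chromosome 12, 52168996 to 52192014, minus strand), a type II keratin that lies near desmosomes and at the cell margin, had the largest fall of the 9. The control libraries were at 12.74, 13.18 and 12.41 FPKM, and the si-STRIP2 libraries at 2.99, 3.41 and 2.94. The gap between the groups was many times the spread within either. In counts these were 1208, 996 and 931 against 245, 260 and 221. The level was 4.12-fold lower, 24.4% of control (log2 fold change -2.04, standard error 0.067, 95% interval -2.18 to -1.91, edgeR adjusted p = 5.37e-23). LINC00592, which overlaps KRT80, held 1.81% as many counts.

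KRT7 (ENSG00000135480, chromosome 12, 52232520 to 52252186, plus strand) is a type II keratin of ductal and glandular epithelium that most colonic carcinomas lack. It was at 11.54, 11.51 and 11.83 FPKM in the control libraries and at 6.98, 7.22 and 6.61 in the si-STRIP2 libraries. The control libraries were tightly grouped and all above the si-STRIP2 libraries. KRT7 was 1.68-fold lower, at 59.7% of control (log2 fold change -0.75, standard error 0.058, 95% interval -0.87 to -0.63, edgeR adjusted p = 5.10e-13). The antisense gene KRT7-AS, which overlaps KRT7 in its exons, was lower as well (log2 fold change -1.28, edgeR adjusted p = 0.00229), but held 2.00% as many counts. Without knowledge of strand, reads of this pair cannot be told apart where they overlap.

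KRT23 (ENSG00000108244, chromosome 17, 40922700 to 40937646, minus strand), a type I keratin described in colon cancer cells, fell by an amount near that of KRT7. Control libraries held 10.17, 10.90 and 9.38 FPKM, against 5.65, 5.72 and 5.63 in si-STRIP2, with no overlap. The SD was 0.047 FPKM among the si-STRIP2 libraries and 0.760 among the controls. Its log2 fold change was -0.84 (standard error 0.074, 95% interval -0.99 to -0.69, edgeR adjusted p = 9.81e-12), 55.8% of control. KRT80, KRT7 and KRT23 were called in each of the 19 alternative settings, with log2 fold changes of -2.11 to -1.75 for KRT80, -0.78 to -0.67 for KRT7 and -0.90 to -0.74 for KRT23.

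KRT20 (ENSG00000171431, chromosome 17, 40875889 to 40885242, minus strand), the type I keratin of differentiated enterocytes and goblet cells and a diagnostic marker of colorectal origin, was barely detected. It had 29, 24 and 15 counts in si-NC (0.70, 0.72 and 0.46 FPKM) and 11, 8 and 13 in si-STRIP2 (0.31, 0.24 and 0.39 FPKM). The groups did not overlap, but the nearest libraries held 15 and 13 counts. Its log2 fold change was -1.01 (standard error 0.327, 95% interval -1.67 to -0.34, edgeR adjusted p = 0.00935). Without si-NC replicate 1 it was -0.91 (edgeR adjusted p = 0.0531), and without si-STRIP2 replicate 2 it was -0.85 (edgeR adjusted p = 0.0519), so either library decided the call.

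The hair keratins KRT86 (ENSG00000170442, chromosome 12, 52249300 to 52309163, plus strand) and KRT81 (ENSG00000205426, chromosome 12, 52285913 to 52291534, minus strand) form the cortex of hair in their normal setting. KRT86 had 15, 16 and 14 counts in si-NC and 7, 3 and 4 in si-STRIP2, and these did not overlap. It was 3.02-fold lower (log2 fold change -1.60, standard error 0.421, 95% interval -2.45 to -0.74, edgeR adjusted p = 0.00169). KRT81 had 13, 11 and 17 counts in si-NC and 13, 9 and 8 in si-STRIP2, which overlap. Its log2 fold change of -0.38 (95% interval -1.13 to 0.36, edgeR adjusted p = 0.388) did not pass, and its interval includes no change and a fall of more than 2-fold. The intervals of KRT81 and KRT86 overlap, and the difference between the pair was not tested. Since the pair share their rod end and a run of 605 identical bases, their counts were also summed, to 28, 27 and 31 in si-NC and 20, 12 and 12 in si-STRIP2. The sum was lower, by a log2 fold change of -0.90 (edgeR adjusted p = 0.00855). The span of KRT86 also contains KRT81 and overlaps KRT7 at one end, and KRT7 held 6942% as many counts as KRT86. In the gene models used for the sequences, however, the exons of KRT86 did not overlap those of KRT7 or KRT81. They shared 126 bases on the same strand and 80 on the opposite strand with other genes, 8.60% of the exonic bases of KRT86. After KRT7, the overlapping gene with most counts was ENSG00000287051, with 449.2% as many as KRT86. The part of reads from overlapping genes in the KRT86 count was not tested. Among 7 hair follicle keratins taken as markers, the highest, KRT83, had 16 counts over all 6 libraries and KRT33A had 0.

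Summed over the 9 genes, the keratin level was 506.2, 502.3 and 492.8 FPKM in si-NC and 480.1, 486.4 and 468.4 in si-STRIP2. These groups did not overlap, and the means were 500.4 ± 6.92 and 478.3 ± 9.12 FPKM (SD, n = 3). On the scale of TPM, which gives each library the same sum of levels, they were 1840 ± 122 and 1764 ± 46.0 and overlapped. KRT8, KRT18 and KRT19 supplied 92.8% ± 0.171 of it in si-NC and 96.6% ± 0.0429 in si-STRIP2. The share of KRT80 was 2.55% ± 0.0613 and 0.651% ± 0.0438, that of KRT7 2.32% ± 0.0668 and 1.45% ± 0.0368, and that of KRT23 2.03% ± 0.134 and 1.19% ± 0.0147. The share of KRT19 went from 28.0% ± 0.429 to 34.2% ± 0.467, while that of KRT18 was 38.9% ± 0.246 and 35.99% ± 0.477. The share of KRT8 overlapped between the groups, at 25.9% ± 0.416 and 26.3% ± 0.246. These sums and shares are descriptions, with no test.

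Because type I and type II chains pair 1 to 1 in protein, the balance of the transcripts was also computed. The ratio of summed type II to summed type I FPKM went from 0.448 ± 0.0106 to 0.399 ± 0.00560. The ratio of KRT8 to KRT18 was 0.666 ± 0.0113 and 0.732 ± 0.0127. Neither ratio overlapped between the groups, and they moved in opposite directions. A level per length depends on the length used, and for KRT8 it matters much. The deposited exonic size of KRT8 is 6881 bases, the union of exons of all its transcripts, while the single GENCODE 29 transcript taken for comparison is 1687 bases long. For KRT18 the lengths are 3069 and 1562 bases, and for KRT19 2336 and 1390 bases.

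With the length of 1 transcript, chosen as an alternative after seeing the data, KRT8 was the most abundant keratin. It was then at 528.9 ± 1.52 FPKM in si-NC and 513.7 ± 13.2 in si-STRIP2. KRT18 was at 382.9 ± 5.46 and 338.2 ± 3.29, and KRT19 at 235.3 ± 6.83 and 275.3 ± 7.86. The order of the top tier therefore turned from KRT18, KRT19, KRT8 into KRT8, KRT18, KRT19 in si-NC. The ratio of KRT8 to KRT18 became 1.38 ± 0.0234 and 1.52 ± 0.0264, and that of type II to type I 0.901 ± 0.0206 and 0.857 ± 0.0116. Each ratio kept its direction between the groups, but whether KRT8 exceeds KRT18 depends on the length used.

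**Figure D3:**
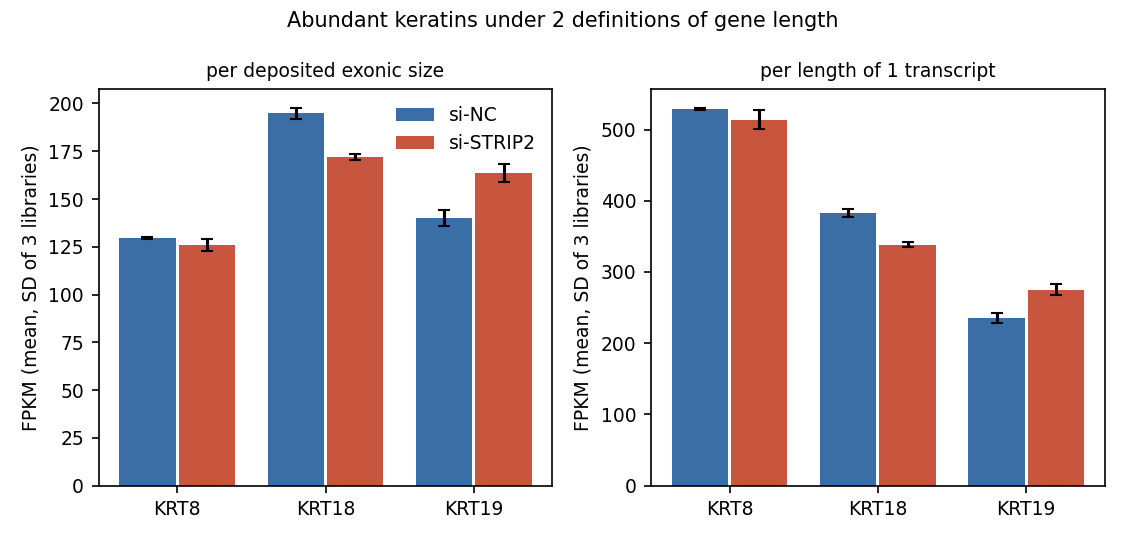
FPKM (mean of 3 libraries, error bars SD) of KRT8, KRT18 and KRT19 in si-NC and si-STRIP2, per deposited exonic size at left and per length of 1 transcript at right. KRT8 is lowest at left in both groups (129.7 in si-NC) and highest at right (528.9), and the difference between the groups is in the same direction in both panels for each gene.

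Genes whose profile over the 6 libraries lay closest to a called keratin were found by the root mean square difference of log2 CPM, each gene centred on its mean, among 6974 or 6975 genes of at least 5 FPKM in either group. KRT80 was closest to LURAP1L (0.079) and LAMP3 (0.094), whose log2 fold changes were -2.14 and -2.16. KRT7 was closest to GDF15 (0.026), a stress-induced cytokine, and VEGFA (0.026), the endothelial growth factor. KRT23 was closest to KLK7 (0.031), a secreted serine protease, and RNF125 (0.032). KRT18 was closest to MARK3 (0.0089) and WDR45B (0.010), and KRT19 to PRDX2 (0.014), a peroxiredoxin, and UTP14A (0.014). For the low genes the nearest distances were larger, 0.189 for KRT20 with OPTN and 0.192 with SLC16A6, and 0.225 for KRT86 with DUSP1 and 0.233 with FGF19. With 2 groups of 3 libraries, this measure mostly reports genes of equal fold change, and a low count adds noise to it. The low genes were matched to smaller log2 fold changes. KRT20 (-1.01) was matched to OPTN (-0.72) and SLC16A6 (-0.83), and KRT86 (-1.60) to DUSP1 (-1.14) and FGF19 (-1.46). A small count added before the log draws the changes of low genes toward no change in this measure.

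The rest of the keratin family was sparse. The 58 other keratin symbols include 12 that end in P, as symbols of pseudogenes do. Of the 58, 27 had 0 counts, 42 had under 3 counts in every library, and 5 were abundant enough to be tested. Of these 5, 0 were higher and 2 were lower, beside 27.8% higher and 27.0% lower among all genes tested. KRT10, the type I keratin of suprabasal epidermis, was at 9.60, 10.26 and 8.99 FPKM in si-NC and 6.38, 7.59 and 6.34 in si-STRIP2 without overlap (log2 fold change -0.51, edgeR adjusted p = 4.63e-06). KRT16, a stress keratin of epidermis, passed narrowly from 55 counts in all with overlapping groups (-1.08, edgeR adjusted p = 0.0487) and lost its call in 9 of 15 alternatives. KRT15 (0.092), KRT13 (-0.60) and KRT222 (-0.23) did not pass. Without si-STRIP2 replicate 2, KRT13 (-1.19, edgeR adjusted p = 0.0434) and KRT222 (-0.44, edgeR adjusted p = 0.00889) were called lower. KRT16 held 18, 10 and 10 counts in si-NC and 11, 5 and 1 in si-STRIP2. KRT13 held 14, 11 and 18 in si-NC and 9, 15 and 3 in si-STRIP2. Both leaned on the control group to pass the filter on low counts. Through KRT16, the count of 2 lower keeps part of the effect of that filter. The basal pair KRT5 and KRT14 was near 0 (0.030 and 0.063 FPKM in si-NC). Of 137 further keratin pseudogenes, whose symbols have a number after the P, 90 had 0 counts and 3 were tested. KRT8P33 (1.06, edgeR adjusted p = 0.000289) and KRT8P12 (0.81, edgeR adjusted p = 0.0107, with overlapping groups) were higher, and lie inside CEP120 and KPNA4, which held 5183% and 11130% as many counts. The call of KRT8P12 was lost without si-NC replicate 3 (edgeR adjusted p = 0.0549) and without si-STRIP2 replicate 1 (edgeR adjusted p = 0.0645).

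Keratin filaments end on desmosomes, through desmoplakin and plakoglobin, and on hemidesmosomes. Of 23 genes of these anchors and of the cytolinkers, 19 were tested, 5 were higher and 6 lower, with a median log2 fold change of -0.054. These counts were near the shares among all genes tested, 27.8% higher and 27.0% lower. A trio of desmosomal cadherins fell: DSC2 from 17.4 ± 0.778 to 12.2 ± 0.275 FPKM (-0.52, edgeR adjusted p = 1.01e-12), DSC3 (-0.76, edgeR adjusted p = 1.52e-12) and DSG2 from 64.3 ± 2.41 to 47.4 ± 0.397 FPKM (-0.44, edgeR adjusted p = 3.71e-11). Of the genes that rose, JUP encodes plakoglobin (0.33, edgeR adjusted p = 4.24e-08) and DSP desmoplakin (0.22, edgeR adjusted p = 0.000389, with overlapping groups). DSP lost its call with DESeq2 (adjusted p = 0.0581), and both lost it against a change of 1.2-fold (edgeR adjusted p = 0.920 for DSP and 0.0659 for JUP). EVPL (0.43), TCHP (0.31) and EPPK1 (0.22) were the other genes that rose, and EPPK1 lost its call in 11 of 15 alternatives. TCHP lost its call against a change of 1.2-fold (edgeR adjusted p = 0.261). DSP, EVPL, TCHP and EPPK1 were named after their values were seen.

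Other intermediate filament genes were split as well. Of 15, 9 were tested, 4 were higher and 2 lower, with a median of -0.0057, beside 27.8% higher and 27.0% lower among all genes tested. LMNA, the nuclear lamin A/C gene, rose from 34.8 ± 0.460 to 45.9 ± 2.69 FPKM (0.40, edgeR adjusted p = 7.78e-10), and NES, the gene of nestin, from 1.49 ± 0.125 to 2.85 ± 0.320 FPKM (0.94, edgeR adjusted p = 1.19e-09). PRPH (-1.06) and BFSP1 (-0.57) fell. VIM, the filament of mesenchymal cells, and LMNB2, both named after their values were seen, rose by 0.84 and 0.23 on the log2 scale. VIM was under 1 FPKM in both group means (0.527 and 0.947). LMNB2 lost its call against a change of 1.2-fold (edgeR adjusted p = 0.849).

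Of 27 transcription factors known for epithelial and keratin genes, 24 were tested, 16 were lower and 3 higher (median log2 fold change -0.40). Among all genes tested 27.0% were lower and 27.8% higher. The list was written with earlier results of these data known and holds the AP-1 subunits. Its counts are therefore a description of these genes and do not speak for such factors in general. The AP-1 subunits JUN (-2.60), FOS (-2.01) and FOSB (-3.13) had the largest falls of this list, with FOS at 22.1 ± 3.49 and 5.47 ± 0.690 FPKM. KLF5, a factor of proliferating intestinal epithelium, fell from 28.5 ± 0.847 to 14.2 ± 0.833 FPKM (50.05% of control, edgeR adjusted p = 1.55e-18). Those that rose were the AP-1 subunit FOSL1 (0.41), SP1 (0.12) and the intestinal homeobox factor CDX2 (0.38), all 3 named after their values were seen. SP1 lost its call without si-STRIP2 replicate 2 (edgeR adjusted p = 0.0531). Against a change of 1.2-fold SP1 lost it too, as did CDX2 (edgeR adjusted p = 0.157). Whether any of these factors bears on the keratins was not tested.

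Genes of colonic differentiation gave little to compare with KRT20. Of 25, 13 had under 3 counts in every library and 5 were tested, of which 0 were higher and 2 lower, with a median of -0.11. EPCAM, the epithelial adhesion molecule, had overlapping groups (-0.11, edgeR adjusted p = 0.0248) and lost its call in 8 of 19 alternatives. MUC12, a membrane mucin named after its values were seen, was at 0.060 and 0.017 FPKM with overlapping groups (-1.82, edgeR adjusted p = 0.00156). Its call was lost with DESeq2 (adjusted p = 0.0793), and leaving out 1 library moved its log2 fold change between -3.13 and -1.35. MUC12 held 20, 30 and 10 counts in si-NC and 12, 1 and 3 in si-STRIP2. It thus leaned on the control group to pass the filter on low counts. Through MUC12, the count of 2 lower keeps part of the effect of that filter. CA2 (-0.081) did not pass. These lists were compared by counts alone, beside 27.8% higher and 27.0% lower among all genes tested.

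**Figure D4:**
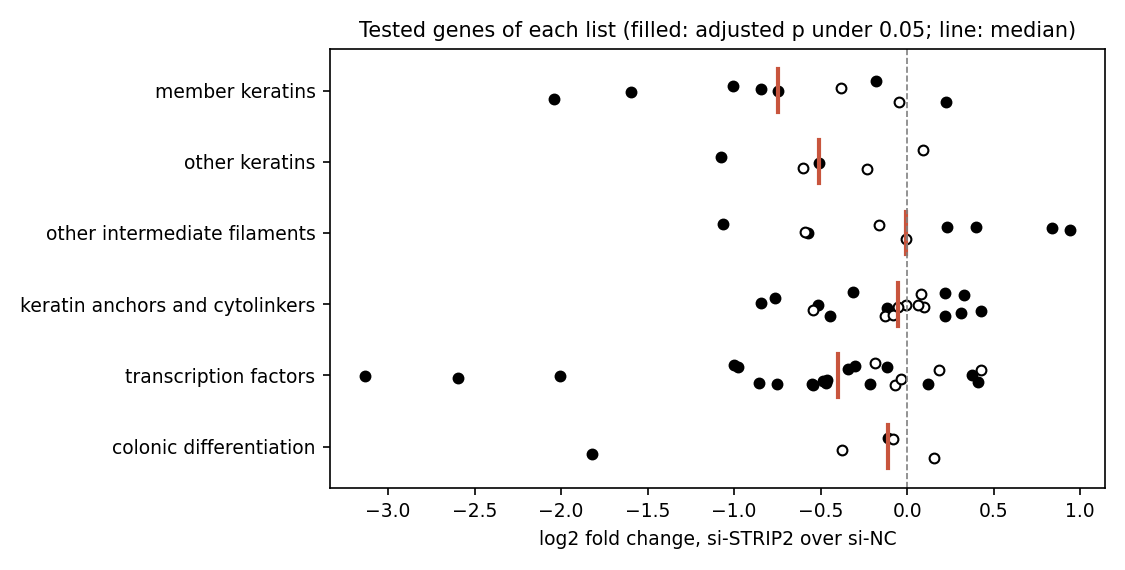
Log2 fold change (si-STRIP2 over si-NC) of every tested gene of the 9 keratins and of 5 lists of related genes, with filled points where the edgeR adjusted p was under 0.05 and a line at each median. The median is -0.75 for the 9 keratins, -0.054 for the anchors and -0.40 for the transcription factors, and all genes tested have a median of 0.014.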

How the data were processed

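The authors deposited 1 table with a raw count and an FPKM value per gene and library, per the file headers. Per the submitters' processing notes, the tools were bcl2fastq 2.20.0.422, FastQC 0.10.1, cutadapt 1.9.1, HISAT2 2.2.1 and HTSeq 0.6.1, and the build was GRCh38.p13. Per the labels' protocols, poly(A) RNA was made into directional libraries. The deposited FPKM values matched recomputation from count, exonic size and column total within 0.005.

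The counts were tested in R 4.3.3 with edgeR 4.0.16 (filterByExpr with a minimum count of 10, TMM, quasi-likelihood F test, group only, 2-sided), with Benjamini-Hochberg adjustment over the 15687 genes tested, which held 99.8% of counts. A call means an adjusted p under 0.05. Intervals are 95% intervals of the fit. DESeq2 1.42.0 and limma 3.58.1 were alternatives. The edgeR script was tested on simulated data. Sequences came from GENCODE 29 on GRCh38, where 5 of the 9 members had the same start and end as in the deposited table. Rod-end sequences of 3 members are not reported here. A sequence table of promoters held 2 of the 9 and was not used.

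The members, the lists and the rule for named genes were chosen with earlier results of these data known. The rule took the members, STRIP2, up to 4 called genes per list with the smallest adjusted p and at least 1 FPKM, and the 2 genes most like each called member (at least 5 FPKM). Limits cover counting error and the spread between libraries only. That spread was larger in si-NC. The chi-square per degree of freedom of counts between pairs of libraries was 4.91 to 16.6 in si-NC and 2.138 to 2.265 in si-STRIP2. The fit estimated the spread of each gene over both groups together.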

Additional observations from a re-analysis of the deposited data

How the results depend on the processing

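The tests were repeated under 19 alternative settings, and the levels also in TPM and with the length of 1 transcript, the last chosen after seeing the data. No keratin reversed its direction, and 5 to 7 of the 9 were called. KRT20, KRT81 and KRT86 were not tested where at least 1 FPKM in 3 libraries was asked, with edgeR or limma, which left 5 calls. With edgeR that was 5 of 6 keratins, beside 7488 of 12329 genes tested. With no filter on low counts it was 7 of 9, beside 8365 of 32799. The share of all genes called thus also depends on the setting. The test against a 1.2-fold change called 5 keratins, and 3723 genes in all in place of 8599, of 15687 tested. The summed keratin level was 1840 (si-NC) and 1764 (si-STRIP2) in TPM, and 1204 and 1156 FPKM with the length of 1 transcript, where the ratio of KRT8 to KRT18 was 1.38 and 1.52 and that of type II to type I 0.901 and 0.857. Leaving out each library gave 6 to 7 keratins called and 7690 to 8494 genes in all, with 15948 to 16055 genes tested. The other keratins called lower numbered 1 to 4 across the settings.

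No pairing by the replicate numbers of the labels was seen. Libraries with the same number deviated with correlations of -0.0858, -0.0133 and -0.0718, and none correlated best with its own number. Correlations this weak cannot show whether the libraries were prepared in pairs. With the replicate block, 7 keratins and 8293 of 15687 genes tested were called. Depth limits KRT20, KRT81 and KRT86, whose libraries held 3 to 29 counts.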
